A study of Arabidopsis thaliana with 20 samples.

Results

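Phased siRNAs (phasiRNAs) are cut one after another, in steps of 21 nt, from a long double-stranded RNA. The 58 phasiRNAs described here are those rows of a table of 4520 expressed small RNAs (sRNAs) whose names mark them as neither miRNA (207 rows) nor siRNA (4255 rows). They were measured in 18 libraries from *Arabidopsis thaliana* Col-0, a standard laboratory accession. Each library came from the aerial tissue of seedlings kept in the dark for 4 d (W0h) and then, for the other time points, moved to continuous white light of 100 µE for 1, 3, 6, 12 or 24 h (W1h, W3h, W6h, W12h and W24h), a course in which dark-grown seedlings de-etiolate. No transgene or mutant was used. The groups differ in light time and, with it, in seedling age, and these cannot be told apart. Each of the 6 time points had 3 replicates. Libraries of replicates 1 and 2 were built with a TruSeq kit and those of replicate 3 with an older one, Small RNA v1.5, so kit and replicate 3 cannot be told apart. The values are RPM, in which the reads of an sRNA are scaled to a fixed total of mapped reads of 20 to 24 nt. These mapped reads numbered 13426228 to 20445034 per library (median 15958438) as inferred from the values themselves.

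A phasiRNA precursor is first cleaved by a miRNA or by another siRNA. The RNA-dependent RNA polymerase RDR6 then makes the cut transcript double-stranded, and the Dicer enzyme DCL4 processes it from the cleaved end, so that siRNAs of both strands come in register with the cut. The noncoding TAS1 and TAS2 transcripts are cleaved through miR173 and TAS3 through miR390. Several mRNAs of pentatricopeptide repeat (PPR) proteins, which bind organellar RNA, are known both as targets of TAS2 siRNAs and as phasiRNA sources of their own. TAS3 siRNAs are known to act on auxin response factor mRNAs.

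The 58 rows held 46 distinct sequences, since 9 sequences stood on 21 rows under different names. All 58 rows were found at their stated positions in the TAIR10 genome and lay in 12 annotated genes. TAS1c held 13 rows, TAS1a 12, TAS2 9, TAS3 2 and TAS1b 1, all in exons of these noncoding RNAs. The other 21 rows lay in coding sequence of 7 PPR genes on chromosome 1, namely AT1G62910 (RFL9), AT1G63070, AT1G63080, AT1G63150, AT1G63130 (RPF6), AT1G62930 (RPF3) and AT1G62590. These 21 rows came from 10 sequences, and 19 of them shared their sequence with another row, so their reads cannot be assigned to 1 PPR gene.

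The sequences below are those on which the values turn, 5′ to 3′ with TAIR10 positions. The first set is the related siRNAs of TAS1a and TAS1c that carry a TAS name, all from the minus strand, which is the sense strand of both transcripts. Capitals mark bases that differ from siR255.
atTAS1a-siR255, chr2:11721965-11721985: ttctaagtccaacatagcgta
atTAS1a-siR438(+), chr2:11722007-11722027: ttTtaagtcTaacatagcgtT
atTAS1a-siR752, chr2:11722049-11722069: tCctaagtccaacatagcgtT
atTAS1c-siR850, chr2:16537816-16537836: ttctaagtTcaacataTcgAC
Counted from the 5′ end of siR255, siR438(+) carried C3T, C10T and A21T, siR752 carried T2C and A21T, and siR850 carried C9T, G17T, T20A and A21C. The siR255 sequence is also in TAS1c, at chr2:16537837-16537857, and the table lists it there as a row of its own. It matched 3 places in the genome. A 20-nt siRNA that lies within it in TAS1a and TAS1c also lies in TAS1b, at chr1:18549545-18549564.

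The second set is from the PPR genes. Capitals mark the base that differs from phasiR_20 or, in phasiR_27, the base past its end, since phasiR_27 begins 1 nt later.
phasiR_20, chr1:23390072-23390092, minus strand, AT1G63080: aatggattatgtaagagaggt
phasiR_25, chr1:23299750-23299770, plus strand, RFL9: aaCggattatgtaagagaggt
phasiR_27, chr1:23386480-23386500, minus strand, AT1G63070: atggattatgtaagagaggtG
phasiR_25 differed from phasiR_20 by T3C. phasiR_20 and phasiR_27 each matched 8 places in the genome and phasiR_25 matched 3.

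The third set shows partners on opposite strands that pair as a duplex. Capitals mark the 2-nt 3′ overhang that Dicer cuts leave.
phasiR_39, chr2:11721986-11722006, minus strand, TAS1a sense: tgattggatcttaggaaatTA
phasiR_40, chr2:11721988-11722008, plus strand, TAS1a antisense: atttcctaagatccaatcaAA
phasiR_8, chr2:16537858-16537878, minus strand, TAS1c sense: tcggtggatcttagaaaatTA
phasiR_9, chr2:16537860-16537880, plus strand, TAS1c antisense: attttctaagatccaccgaTA
phasiR_5, chr2:16537710-16537730, minus strand, TAS1c sense: tttcaagtcgtctaaagaaCA
phasiR_44, chr2:16537712-16537732, plus strand, TAS1c antisense: ttctttagacgacttgaaaAT

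The last set holds other abundant or changing phasiRNAs, and phasiR_45, which lies 1 nt from phasiR_44. Capitals mark the first base.
phasiR_53, chr2:11721923-11721943, minus strand, TAS1a sense: Atgatatttgtagtaatggcg
phasiR_3, chr2:11721946-11721966, plus strand, TAS1a antisense: Acgatatcttccatttctcta
phasiR_45, chr2:16537713-16537733, plus strand, TAS1c antisense: Tctttagacgacttgaaaatc
phasiR_52, chr2:16539980-16540000, minus strand, TAS2 sense: Tccaagcgaatgatgatactt
atTAS2-3'D6(-), chr2:16539877-16539897, plus strand, TAS2 antisense: Atatcccatttctaccatctg
phasiR_11, chr2:16539898-16539918, plus strand, TAS2 antisense: Gaatacttgaactaccatcta
phasiR_1, chr1:18549483-18549503, plus strand, TAS1b antisense: Attccggacatctcccatttt
Of the 46 sequences, 27 were sense and 19 antisense to their gene. A was the first base of 21, T of 19, C of 4 and G of 2.

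The positions were set against the cleaved ends of their precursors, as given by degradome sequencing, which reads the 5′ ends of cut mRNAs, in 1 dark library and 1 light library that mixed the 5 light time points. Neither has a replicate. The queries cutting TAS1a, TAS1b, TAS1c and TAS2 lie in the MIR173 gene and that cutting TAS3 lies in the MIR390a and MIR390b genes. Of the 37 TAS rows, 29 began exactly on the 21-nt register from the cleaved end, including 12 of 12 in TAS1a and 9 of 9 in TAS2. The other 8 were 1 nt off, 6 in TAS1c (phasiR_5, 44, 46, 47, 48 and 50) and both TAS3 rows. By the Methods, phasiRNA loci were found by 21-nt phasing, so a register shared by rows of a locus is part of how they were listed. The Methods name no cleaved end in that step. Rows of 1 locus that share a register are therefore not separate matches to the cut. phasiR_52 (TAS2) and phasiR_43 (TAS1a) are the first 21 nt after the cut.

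In 2 PPR genes the register began at a site cut by a TAS2 siRNA. The queries at these sites were forms of atTAS2-3'D6(-) of 22 and 23 nt. In RPF6 (AT1G63130), 105 dark and 45 light reads began at nt 662 of the mRNA, and in AT1G63150, 15 dark and 11 light reads began at nt 547. All 7 phasiRNA rows of both genes were exactly in register with these sites. In RPF6, phasiR_2 and phasiR_32 lay 63 nt and phasiR_33 147 nt past the site. In AT1G63150, phasiR_14, 34, 35 and 36 lay 21, 63, 105 and 147 nt past it. Of these 7, only phasiR_2 and phasiR_32 have sequences found on no other row. Most other recorded sites in PPR genes were off register. Another TAS2 siRNA query had 120 dark reads at nt 1469 of RPF3 and 109 at nt 1512 of AT1G63080. Rows there were -9 or -10 nt off. MIR161 queries were off by -9 nt in AT1G62590 and RPF3, and by -9 and -1 nt in RFL9. A query at nt 1020 of AT1G63080 (70 light reads) was off by 0 or -1 nt. Second sites in RPF6 (nt 925) and AT1G63150 (nt 997), with 4 light reads each, were off by 10 and -9 nt.

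The 22-nt form has 1 base more at its 5′ end (capital) than atTAS2-3'D6(-) and is listed among the siRNAs.
22-nt form, chr2:16539876-16539897, plus strand: Tatatcccatttctaccatctg
Reads of the 22-nt form were 3.59 to 4.80 times those of the 21-nt form in 10 TruSeq libraries and 0.72 to 1.10 times in 5 v1.5 libraries. These ranges did not overlap, but they leave out 3 libraries, for reasons given with the zeros further on. In these the ratio was 4.63 (TruSeq, replicate 1 at W3h), 0.53 (TruSeq, replicate 2 at W24h) and 0.025 (v1.5, replicate 3 at W24h). With them included, the ranges of the kits overlapped.

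Other degradome sites of phasiRNA-related queries were few. Queries sharing at least 17 nt with a phasiRNA gave 4 dark and 11 light records, of which 2 and 9 had at least 5 reads at the site. Besides RPF6 and AT1G63150, 4 light records were sites in phasiRNA precursors themselves. Their queries share sequence with siRNAs of the same transcripts, so a close match is given by origin. phasiR_50 had 139 of 6694 reads of the transcript at nt 473 of TAS1c and phasiR_3 had 20 of 2243 at nt 514 of TAS1a. A longer form of atTAS2-3'D6(-) had 37 of 2080 reads at nt 533 of TAS2. A phasiR_57-related query had 21 of 4560 reads at nt 396 of TAS3. Whether these reads come from cuts by the queries was not tested. The siR255-related query had 20 of 387 light reads at nt 737 of AT5G18065, and whether they come from a cut by it was not tested either. A query identical to atTAS2-3'D6(-) had 9 light reads in AT1G10110 (CleaveLand category 1). A phasiR_1-related query had 22 light reads in AT1G35980 (category 0, the maximum of the transcript). Pairing at both of these sites was poor, with Allen scores (a mismatch penalty) of 10.5 and 14, against 1.5 to 2.5 at RPF6 and AT1G63150. The sites in the 4 precursors and in AT5G18065 were all of category 2, which marks a site with more reads than is usual for its transcript but below the maximum, and the dark library held 0 category 2 records of any query, against 139 of 416 in the light library. Dark and light therefore cannot be compared for the category 2 sites.

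**Figure D1:**
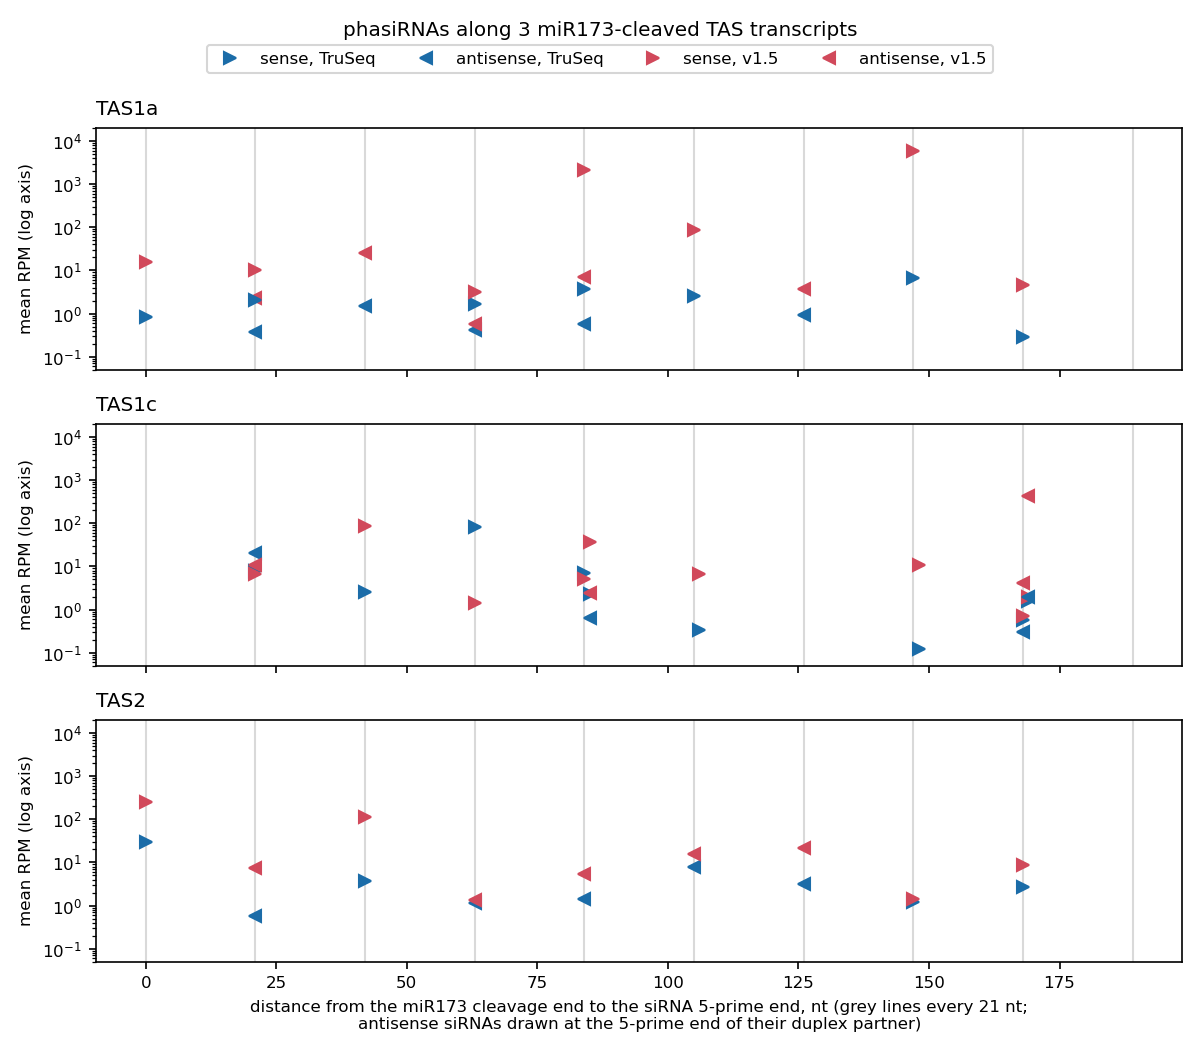
Mean RPM (log axis) of each phasiRNA along TAS1a, TAS1c and TAS2 against its distance from the miR173-cleaved end in nt, for TruSeq (12 libraries) and v1.5 (6 libraries), with sense and antisense sequences marked apart. With v1.5, phasiR_53 and phasiR_39 stand far above the other TAS1a sequences, and with TruSeq siR850 stands highest in TAS1c.

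Levels and order of the phasiRNAs differed between the TruSeq libraries and the v1.5 libraries, all of which are replicate 3. Counting each sequence once, the 46 sequences summed to 149.5 to 461.1 RPM in the 12 TruSeq libraries (median 241.4 RPM), which is 0.0150% to 0.0461% of the 20 to 24 nt reads. In the 6 v1.5 libraries they summed to 9213 to 10853 RPM, or 0.921% to 1.09%. atTAS1c-siR850 was the most abundant phasiRNA in every TruSeq library, with 25.8% to 38.2% of the sum, and phasiR_53 of TAS1a was the most abundant in every v1.5 library, with 53.7% to 62.2%. The 3 leading sequences held 50.5% to 60.7% with TruSeq and 82.9% to 84.6% with v1.5. TAS1c therefore held 40.2% to 50.8% of the TruSeq sum but 4.6% to 6.00% of the v1.5 sum, and TAS1a held 3.98% to 11.3% and 78.8% to 81.5%. TAS2 held 7.72% to 23.8% and 3.87% to 4.61%, TAS1b held 5.23% to 17.9% and 0.0155% to 0.0443%, and the PPR genes held 11.4% to 25.1% and 7.23% to 8.91%. TAS3 held up to 2.32% with TruSeq and 1.10% to 1.32% with v1.5. In TruSeq the lowest TAS2 share and the highest shares of TAS1c, the PPR genes, siR850 and the 3 leading sequences came from 1 library, replicate 2 at W6h. There 17 sequences, phasiR_52 of TAS2 among them, were listed at 0, and such zeros are described further on. The next lowest TAS2 share was 15.2% and the next highest PPR share 18.9%.

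Over the 41 sequences that could be set side by side, the median log2 ratio of v1.5 to TruSeq was 2.30, from -5.80 for siR850 to 9.11 for phasiR_39. It was above 2 in 22 of the 41. For 188 miRNA rows the median ratio was 0.10 and 52 were above 2. Related sequences lay far apart: siR850, which differs from siR255 at 4 bases, had a ratio of -5.80 and siR255 one of 5.21. The closely related phasiR_20, phasiR_25 and phasiR_27 had ratios of 4.44, 2.77 and 6.34. phasiR_44 and phasiR_45, which begin 1 nt apart, had ratios of 7.71 and 3.58. These rest on 1 time point each, and those of the other sequences named here on 6. These are descriptions of 1 v1.5 replicate against 2 TruSeq replicates.

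**Figure D2:**
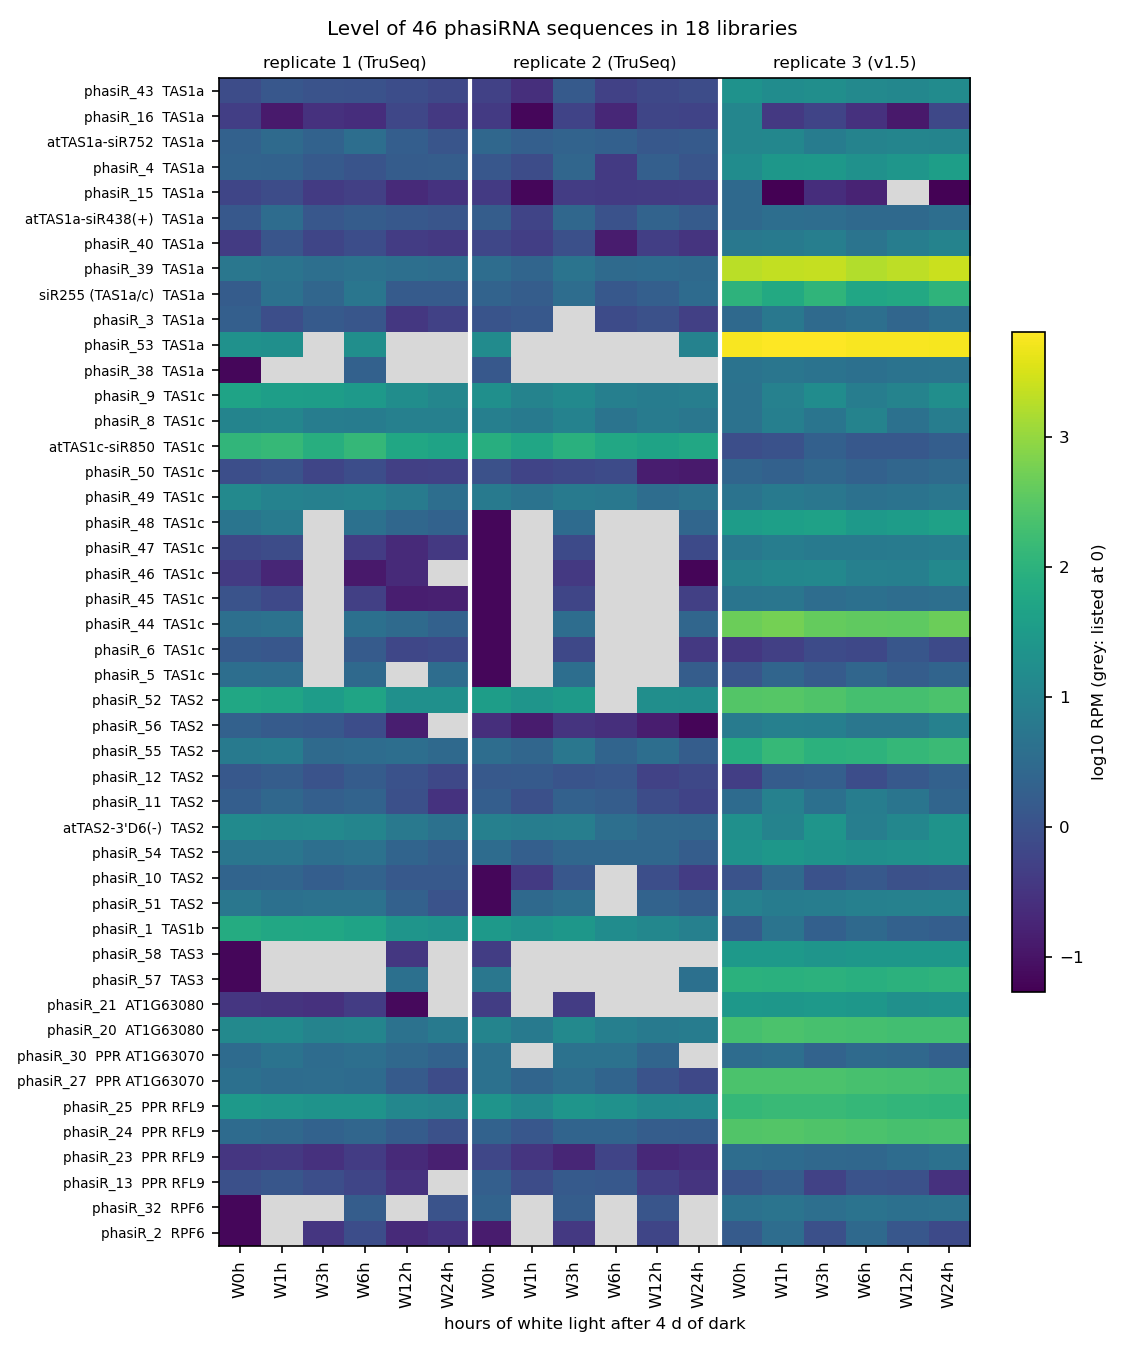
Level of the 46 phasiRNA sequences (log10 RPM, colour; grey where listed at 0) in the 18 libraries, ordered by locus and with the replicates side by side. The 6 libraries of replicate 3 (v1.5) stand apart from the 12 TruSeq libraries, and the grey cells lie in TruSeq libraries in all but 1 of 87 cases.

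Both strands of 8 duplexes were in the table, and in most of them 1 strand was the more abundant. Ratios are over libraries with more than 1 read for each strand. phasiR_39, the TAS1a sense strand, exceeded its partner phasiR_40 in all 12 TruSeq and all 6 v1.5 libraries, with median log2 ratios of 2.65 and 8.28. At TAS1c the antisense strand phasiR_9 exceeded phasiR_8 in all 12 TruSeq libraries and in 4 of 6 v1.5 libraries, with 1 tie and 1 library the other way. phasiR_5 and phasiR_44 had a median log2 ratio of -0.22 in the 6 TruSeq libraries with more than 1 read for both, but -7.78 in v1.5. The neighbouring pair phasiR_6 and phasiR_45 went from 0.86 to -2.49, so the sense strand was the higher with TruSeq and the antisense strand with v1.5. In the pairs of siR438(+) with phasiR_15 and of siR752 with phasiR_16 the named TAS strand had the higher median in both kits, 2.00 and 2.10 with TruSeq and 3.81 and 4.48 with v1.5. phasiR_48 likewise exceeded phasiR_50 by medians of 2.40 and 3.86, and in RPF6 phasiR_2 lay below phasiR_32 with medians of -1.81 and -1.52.

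1 library departed from this. In replicate 3 at W0h both strands of 3 duplexes had the same number of recovered reads, 74 for phasiR_8 and phasiR_9, 50 for siR438(+) and phasiR_15, and 199 for siR752 and phasiR_16. No other library held equal reads above 1 for any of the 8 pairs. At 1 read on each strand there were 3 further cases, all at W0h in the TruSeq replicates. phasiR_16 had 11.6 RPM in that library and 0.12 to 0.67 RPM at the 5 light time points of replicate 3. phasiR_15 had 2.90 RPM there and was listed at 0 to 0.24 RPM afterwards. Every change from W0h of these sequences in replicate 3 rests on that library.

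Zeros in the table fell in blocks of neighbouring phasiRNAs. Of the 828 values of distinct sequences 87 were listed at 0, of which 86 were in TruSeq libraries and 1 in v1.5 (phasiR_15 at W12h). They lay in 22 sequences. None was at W0h, where instead 5 sequences in replicate 1 and 9 in replicate 2 stood at exactly 1 read, against 0 to 2 sequences in each of the other libraries. The number of sequences at 0 per TruSeq library after W0h ranged from 2 (replicate 1, W6h) to 17 (replicate 2, W6h). In TAS1c, phasiR_5, 6, 44, 45, 46, 47 and 48 were all at 0 together in 4 libraries (replicate 1 at W3h, and replicate 2 at W1h, W6h and W12h), while siR850, siR255, phasiR_8, phasiR_9, phasiR_49 and phasiR_50 of the same transcript were never at 0. phasiR_38 and phasiR_53 of TAS1a were both at 0 in 7 libraries, phasiR_57 and phasiR_58 of TAS3 in 8, and phasiR_2 and phasiR_32 of RPF6 in 4.

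Several zeros stood beside values well above 0. phasiR_53 was listed at 19.8, 18.1, 0, 17.1, 0 and 0 RPM from W0h to W24h in replicate 1 and at 15, 0, 0, 0, 0 and 9.51 RPM in replicate 2. In replicate 3 it ran from 5423 to 6419 RPM. phasiR_52 of TAS2 was at 35.5, 23.3, 31.9, 0, 17.4 and 16.3 RPM in replicate 2, and at 18.6 to 55.6 RPM in replicate 1. Each of these sequences thus went from over 9 RPM to 0 or back between adjacent time points. phasiR_57 of TAS3 was at 0.07, 0, 0, 0, 4.01 and 0 RPM in replicate 1, at 5.62, 0, 0, 0, 0 and 3.93 RPM in replicate 2, and at 85.5 to 107 RPM in replicate 3.

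A second listing of the same sequences bears on these zeros. The sequences of 6 phasiRNAs also appear among the siRNA rows, and outside 3 libraries the recovered reads of both rows were equal in 83 of 90 values and 1 read apart in 2. In the other 5 the phasiRNA row stood at 0 or 1 read and the siRNA row above it. phasiR_3 in replicate 2 at W3h had 0 reads on its phasiRNA row and 23 on its siRNA row. phasiR_45 in replicate 2 had 1, 0, 0 and 0 reads at W0h, W1h, W6h and W12h, where the siRNA row of the same sequence had 8, 3, 2 and 5. So in these 5 values a listed 0 or 1 was not a count of no reads. For the phasiRNAs that have no siRNA row this was not tested, and a listed 0 is given below as 0 without a limit or a fold change. The 3 libraries were left out because the siRNA reads of replicate 1 at W3h equalled those at W1h in 92.0% of rows (5.46% in the next highest pair of libraries), and because the siRNA values of replicates 2 and 3 at W24h do not follow the other libraries.

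**Figure D3:**
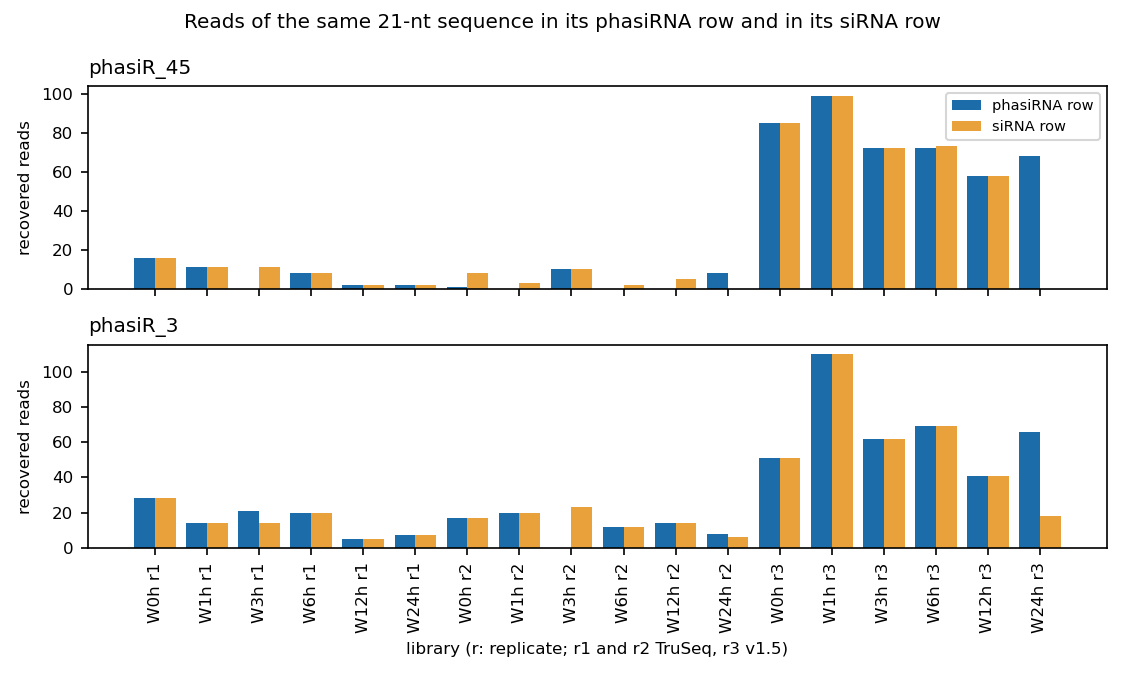
Recovered reads of phasiR_3 and phasiR_45 in each of the 18 libraries, on the phasiRNA row and on the siRNA row that holds the same sequence. The bars match in most libraries before W24h, and in replicate 2 the siRNA bar alone is present at W3h for phasiR_3 (23 reads) and at W1h, W6h and W12h for phasiR_45.

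The 24 sequences above 0 in all 18 libraries (33 of the 58 rows) were tested for a change in light together with 188 miRNA rows, in limma on log2(RPM + 0.1) with the replicate as a block. At this pseudocount the change of a sequence under about 1 RPM is understated. No phasiRNA passed an adjusted p of 0.05 at W1h, W3h, W6h or W12h, where 0%, 0%, 0% and 5.19% of the 212 rows were called lower and 0.472% higher at each time. Unadjusted p-values fell under 0.05 for 1, 0, 2 and 7 of the 24 phasiRNAs at these times, and for 2, 6, 12 and 53 of the 188 miRNA rows. By edgeR on recovered reads, 1, 0, 1 and 0 phasiRNAs were called lower and none higher. Of all rows edgeR called 0.472%, 0%, 0.472% and 5.19% lower and 0.472%, 0.472%, 0.472% and 0.943% higher. Both of its phasiRNA calls were phasiR_16, whose W0h value in replicate 3 is that described above. At W24h 5 of the 24 were called lower and 0 higher, beside 26.9% of all 212 rows called lower and 5.66% higher. At an unadjusted p under 0.05, 8 of the 24 passed at W24h, beside 86 of the 188 miRNA rows. Of the 24 phasiRNAs edgeR called 5 lower and 0 higher, 4 of them the same (24.5% of all rows lower and 5.66% higher). The median log2 change at W24h was -0.55 for the phasiRNAs and -0.41 for the miRNAs.

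The 5 that fell were 2 PPR phasiRNAs, 2 antisense siRNAs of TAS2 and the TAS1b siRNA. phasiR_27, of the PPR genes AT1G63070 and AT1G63080, was at 3.95, 3.3, 3.55, 3.15, 1.5 and 0.82 RPM from W0h to W24h in replicate 1 and at 4.20, 2.45, 3.47, 2.27, 1.09 and 0.68 RPM in replicate 2. In replicate 3 it was at 232, 238, 232, 215, 209 and 185 RPM. It was lower at W12h and W24h than at W0h in each replicate, by far less in replicate 3, and its log2 change at W24h was -1.65 (SE 0.35, limma adjusted p = 0.0016).

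phasiR_25, from RFL9, RPF3 and AT1G63150, was at 28.0, 25.1, 21.8, 21.6, 12.2 and 10.6 RPM in replicate 1, at 22.5, 14.1, 24.2, 19.4, 14 and 13 RPM in replicate 2, and at 128, 145, 145, 128, 116 and 110 RPM in replicate 3. W24h was the lowest time point of each replicate, though in replicate 2 W1h and W12h were close to it, and the log2 change was -0.80 (SE 0.28, limma adjusted p = 0.0315). phasiR_20, which differs from it at 1 base, had a log2 difference of -0.56 and did not pass (SE 0.31, limma adjusted p = 0.172).

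phasiR_1 was the only phasiRNA row listed for TAS1b. In replicate 1 it went from 70.9 RPM at W0h through 60.8, 55.9, 46.3 and 24.0 to 20.5 RPM. In replicate 2 it went from 30.3 through 21, 26.1, 15.5 and 11.8 to 8.84 RPM. In replicate 3 it stayed low at 1.51, 4.76, 1.96, 2.96, 2.06 and 1.80 RPM and was not lower at W24h than at W0h. Its log2 change over the 3 replicates was -1.11 (SE 0.37, limma adjusted p = 0.0251).

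atTAS2-3'D6(-), the siRNA whose longer forms mark the cuts in RPF6 and AT1G63150, was at 14.5, 12.6, 13.1, 10.9, 5.94 and 4.17 RPM in replicate 1 and at 8.72, 7.74, 7.86, 3.77, 2.79 and 2.64 RPM in replicate 2. In replicate 3 it went up and down between 7.82 and 23.5 RPM, with 19.3 RPM at W0h and 22.1 RPM at W24h. The replicates thus did not share a direction, and the change of -1.09 (SE 0.40, limma adjusted p = 0.0452) lay close to the threshold. phasiR_11, its TAS2 neighbour in register, was at 1.74 RPM at W0h in both TruSeq replicates and at 0.30 and 0.55 RPM at W24h, and went from 3.25 to 2.47 RPM in replicate 3 with up to 9.15 RPM between. Its change was -1.36 (SE 0.39, limma adjusted p = 0.0135).

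Leaving out replicate 1 or replicate 2 left 0 phasiRNAs called at W24h, and leaving out replicate 3 gave 13. The share of all 212 rows called lower went with it, from 26.9% to 0.943%, 0.472% and 43.4%. The 5 sequences kept their sign each time. Without replicate 2, phasiR_25 was at -0.81 and phasiR_11 at -1.30, close to their values over 3 replicates, and without replicate 1 at -0.51 and -0.94. When the median within-replicate change of the miRNAs was set to 0 in every library, 2 of the 5 stayed past the threshold, phasiR_11 and phasiR_27.

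The named TAS1 siRNAs did not pass the test. The log2 difference between W24h and W0h was 0.18 for siR255 (SE 0.43), 0.01 for siR438(+) (SE 0.43), -0.56 for siR752 (SE 0.32) and -0.28 for siR850 (SE 0.37). The SEs show that changes of up to about the size of the called ones could have been missed. siR255 was at 1.61 and 2.20 RPM at W0h and at 1.56 and 3.19 RPM at W24h in the TruSeq replicates, and at 103 and 108 RPM in replicate 3. phasiR_39, the leading sequence in this test with v1.5, had a difference of -0.16 (SE 0.28), with 1953 RPM at W0h and 2574 RPM at W24h in replicate 3 and 5.42 and 3.43 RPM in replicate 1.

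Within the TruSeq replicates alone the fall covered more sequences. At W12h 9 of the 24 were called lower and 0 higher (32.5% of the 212 rows lower and 6.13% higher), and at W24h 13 lower and 0 higher (43.4% and 7.55%), with 8 called at both times. Residual spread in this fit is that of 2 replicates of 1 kit. All 5 sequences above were among the 13. The others at W24h were siR850, phasiR_9, 49 and 50 of TAS1c, phasiR_12, 54 and 55 of TAS2 and phasiR_24 of the PPR genes, so no TAS1a sequence was called. siR850 went from 119 to 46.8 RPM in replicate 1 and from 80.4 to 58.9 RPM in replicate 2, a log2 change of -0.90 (SE 0.31, limma adjusted p = 0.0223). phasiR_9 went from 46.2 to 11.7 RPM and from 18 to 7.79 RPM, a change of -1.58 (SE 0.30, limma adjusted p = 0.000189). phasiR_27 had the largest change of the 13, at -2.31 (SE 0.33).

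The direction at W24h differed between the replicates for most sequences. Of the 24, 24 were lower than at W0h in replicate 1, 21 in replicate 2 and 8 in replicate 3, with median log2 ratios of -1.07, -0.84 and 0.26. Of the 21 lower in both TruSeq replicates 15 were higher in replicate 3, and 6 were lower in all 3 replicates. For the miRNAs the medians lay nearer to 0, with values of -0.78, -0.54 and 0.04 and with 139, 135 and 91 of 188 rows lower. At W1h 10, 23 and 6 of the 24 were lower and at W3h 19, 10 and 6, so at the early times the TruSeq replicates did not move together either. The summed phasiRNA level at W24h was 0.359, 0.592 and 1.04 times that at W0h in replicates 1, 2 and 3. This ratio includes sequences with listed zeros.

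**Figure D4:**
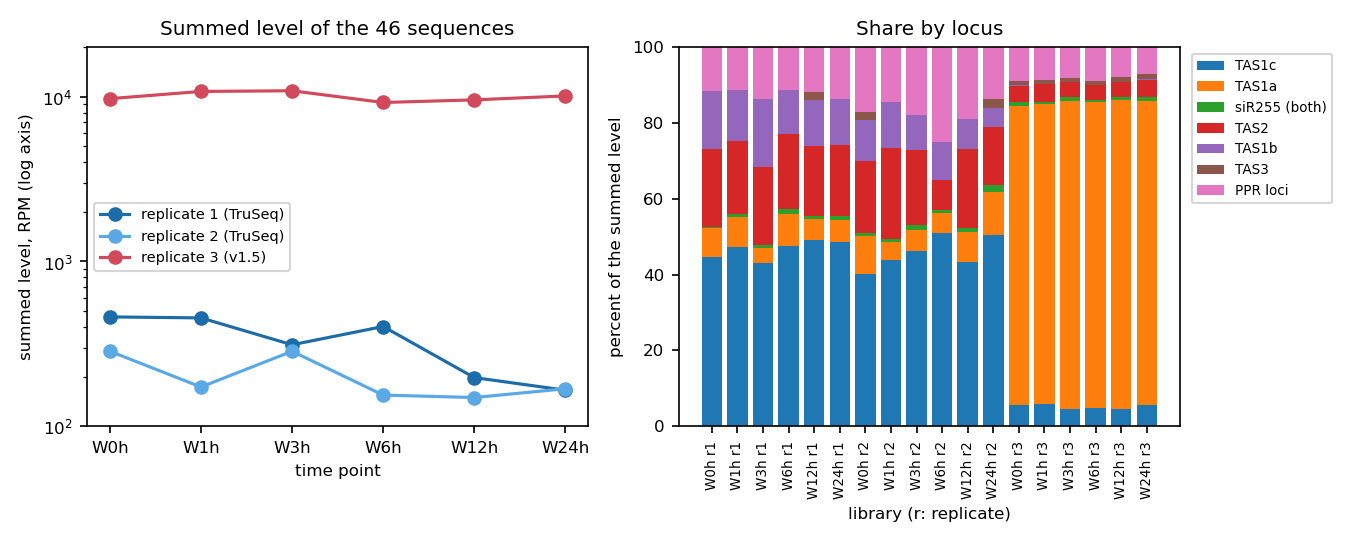
Left, summed level of the 46 sequences (RPM, log axis) at each time point for each replicate; right, the share of that sum by locus in percent for each library. The v1.5 replicate stays between 9213 and 10853 RPM while both TruSeq replicates end below their W0h level, and TAS1c and TAS1a change places as the largest share between the kits.

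The difference between the v1.5 replicate and the TruSeq replicates was tested as an interaction of kit and time. In it replicate 3 is assumed to vary like replicates 1 and 2, and kit and replicate 3 cannot be told apart. At W12h 4 of the 24 phasiRNAs differed (6.6% of the 212 rows), and at W24h 8 differed (25.5% of the rows). The change at W24h was more positive with v1.5 in 21 of 24 phasiRNAs and in 146 of 188 miRNAs. phasiR_9 differed most in the positive direction, with a log2 change of -1.58 in TruSeq and 1.97 in v1.5 (difference 3.55, SE 0.54, limma adjusted p = 0.000328). The equal reads of its duplex in replicate 3 at W0h enter this value. Of the 5 sequences that fell over all 3 replicates, phasiR_1, phasiR_27 and atTAS2-3'D6(-) were among the 8, with differences of 2.01, 1.97 and 1.92.

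**Figure D5:**
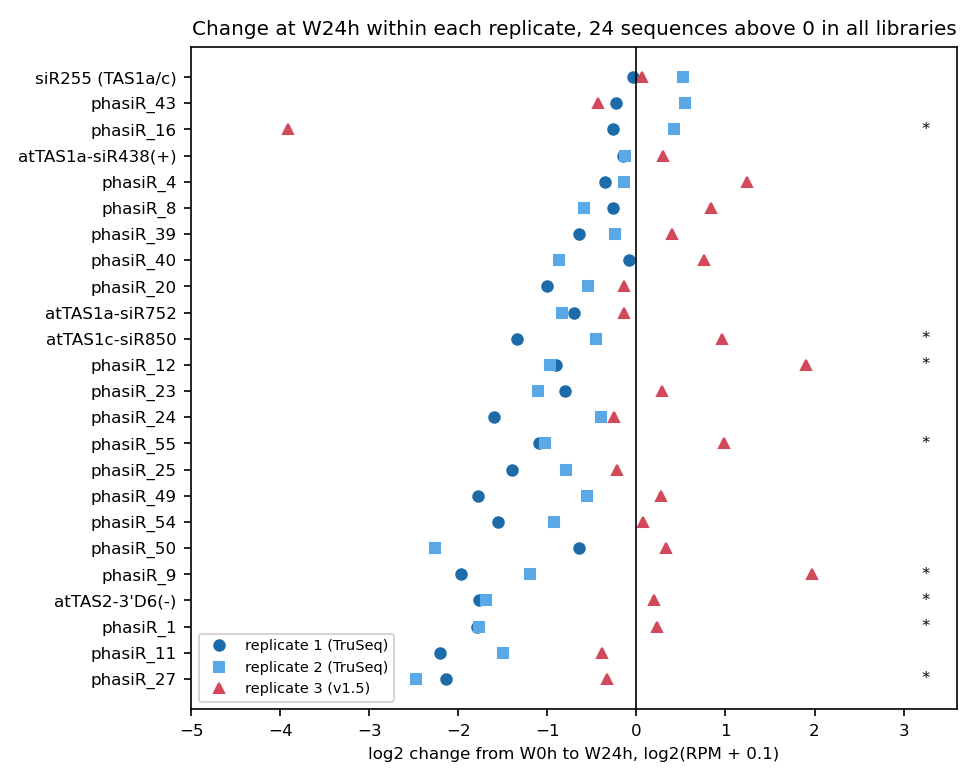
Log2 change from W0h to W24h within each replicate, on the log2(RPM + 0.1) scale, of the 24 phasiRNAs above 0 in all libraries. Each sequence has 1 marker per replicate, for TruSeq (2 replicates) and v1.5 (1 replicate). Asterisks mark sequences past the kit test at W24h. TruSeq markers lie left of 0 for most sequences. The fitted v1.5 change was above the fitted TruSeq change in 21 of 24, and phasiR_16 lies far to the left in v1.5.

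The miRNAs that start phasiRNA production, and those that act on the Argonaute proteins that carry sRNAs, were read from a list of 12, all of which were in the table. None was called at W1h, W3h or W6h, 3 were lower at W12h and 5 were lower at W24h, with 0 higher at any time. Of all 212 rows, 5.19% were called lower at W12h and 26.9% at W24h. Both counts of the list include miR390a-5p and miR390b-5p as separate members. miR173-5p, which cuts TAS1 and TAS2 precursors, had a log2 change of -0.92 at W24h (SE 0.30, limma adjusted p = 0.0251). miR390a-5p, which cuts TAS3, changed by -0.95 (SE 0.24, adjusted p = 0.0054), and miR390b-5p, whose values are nearly the same, also by -0.95. The passenger strand miR390b-3p changed by -1.94 (SE 0.34, adjusted p = 0.000364), while miR390a-3p had a difference of 0.32 (SE 0.27) and did not pass. Thus the trigger strands of TAS1, TAS2 and TAS3 were all called lower at W24h, in a comparison in which 26.9% of rows were. By kit, miR173-5p changed by -1.27 in TruSeq but by -0.21 in v1.5, and miR390a-5p by -1.11 and -0.61.

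miR403-3p, which acts on AGO2, changed by -0.93 (SE 0.27, adjusted p = 0.0150), and miR168a-5p, which acts on AGO1, did not pass, with a difference of -0.63 (SE 0.33, adjusted p = 0.142). miR168a-5p went opposite ways in the TruSeq replicates and in the v1.5 replicate. Its change was -1.40 in TruSeq (limma adjusted p = 2.35e-06 in that fit alone) and 0.90 in v1.5, a difference of 2.31 (SE 0.29). In the TruSeq replicates alone 5 of the 12 were lower at W12h and 6 at W24h, with 0 higher. Of all 212 rows, 32.5% and 43.4% were called lower in that fit, and both counts again include miR390a-5p and miR390b-5p. miR161.1, miR161.2 and miR400, which act on PPR mRNAs, and miR472-3p, which acts on disease resistance gene mRNAs, did not pass at any time over the 3 replicates, though miR161.1 was lower at W12h in the TruSeq fit (-0.47, limma adjusted p = 0.0334). The triggers differed between kits as the phasiRNAs did. miR173-5p was at 1.27 to 4.78 RPM in TruSeq and at 519 to 688 RPM in v1.5. miR390a-5p was at 58.0 to 159 RPM and 337 to 531 RPM, and miR403-3p went the other way, at 430 to 1362 RPM and 117 to 198 RPM.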

How the data were processed

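By the Methods, reads were trimmed of adaptors and aligned to TAIR10 (Bowtie 1.0.0 in the submitters' processing notes), and the authors deposited 1 table of RPM values for the 18 sRNA libraries. Its phasiRNA values gave whole reads in 100% of cases (tolerance 0.02) on an inferred 20 to 24 nt total per library. Since each total was picked as the one giving most whole reads, this does not test the unit. Reads of a sequence shared by several phasiRNA rows stand whole on each row. The authors deposited degradome results as CleaveLand text records (unit: other), with raw reads per site. The table had 0 columns that were not used.

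Members and lists were chosen with earlier results of these data known. Each distinct sequence above 0 in all libraries entered limma 3.58.1 in R 4.3.3 (eBayes with trend) on log2 RPM plus 0.1, with time and replicate as terms. P-values were Benjamini-Hochberg adjusted over 212 rows at 0.05. The replicate was a block because the study forms fold changes within replicates. After removing time point means, libraries of 1 replicate correlated with a median r of 0.940, 0.935 and 0.976 (15 pairs each), to which the kit difference contributes. The study calls its replicates biological. Neither it nor the labels say what a replicate number shares beyond the kit or describe separate cultures. P-values therefore measure the spread between these samples. Named were the 5 leading sequences of each kit, those past the threshold, rows with a TAS name, duplex partners, rows with a listed 0, and those past the kit test, with 12 miRNAs. The fit was tested on simulated data. The alternatives were other pseudocounts, filters, scalings and row sets, no block, no trend, each replicate left out, and edgeR 4.0.16 on recovered reads. Positions were read from the RefSeq copy of TAIR10, whose bases matched all 58 rows. Plots used matplotlib 3.10.9.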

Additional observations from a re-analysis of the deposited data

Results flagged for a closer look

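For the following phasiRNAs the change from W0h differed between the v1.5 replicate and the TruSeq replicates (limma, interaction of kit and time, adjusted over 212 rows), given as the log2 change with v1.5 minus that with TruSeq. Kit and replicate 3 cannot be told apart. At W12h the differences were 2.59 for phasiR_9 and 2.22 for phasiR_12. phasiR_1 differed by 1.88 and phasiR_16 by -6.18. At W24h they were 3.55 for phasiR_9, 2.85 for phasiR_12, 2.05 for phasiR_55 and 2.01 for phasiR_1. phasiR_27 differed by 1.97, atTAS2-3'D6(-) by 1.92, atTAS1c-siR850 by 1.86 and phasiR_16 by -3.99.

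The 6 values of phasiR_16 in replicate 3 were 11.6, 0.37, 0.59, 0.28, 0.12 and 0.67 RPM from W0h to W24h, so that its differences rest on W0h, where it and siR752 had equal reads. phasiR_9 in replicate 3 was at 4.3 RPM at W0h, again with equal reads in its partner, and at 7.43 to 17.1 RPM in light. phasiR_12 was at 0.46 RPM at W0h and 2.02 RPM at W24h in replicate 3, and at 1.34 and 0.67 RPM in replicate 1. phasiR_55 went from 77.2 to 153 RPM in replicate 3, and from 6.49 to 2.98 RPM and 3.49 to 1.66 RPM in replicates 1 and 2. The part of the kit in these differences was not tested.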

How the results depend on the processing

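Across 15 alternatives the 5 sequences called lower at W24h kept their direction. phasiR_27 stayed past the threshold in 12 (log2 change -2.31 to -1.14), phasiR_11 in 11, phasiR_1 and phasiR_25 in 10 each and atTAS2-3'D6(-) in 5. Of 345 values of single sequences under alternatives 286 kept direction and call, and 18 changed sign.

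The count called lower at W24h was 5 as reported, 8 with every deposited row (the same 5 sequences on 8 rows), 2 with the median miRNA ratio set to 0, 1 with the siRNA rows in the fit (2203 rows), 0 with no replicate block, and 0 to 13 with a replicate left out (13 without replicate 3). The miRNA rows called lower moved too, from 52 of 188 to 60 of 207 with every deposited row and 23 of 188 with their median at 0. With the siRNA rows in the fit they were 30 of 188, beside 293 of 1991 siRNA rows. With no block they were 4 of 188, and with a replicate left out 1 to 79. Without the block, the large kit difference enters the residual spread. At W12h the phasiRNA count was 0 as reported, 2 with every deposited row (phasiR_27 on 2 rows), 2 scaled to all mapped reads, and 0 to 9 with a replicate left out (9 without replicate 3). The miRNA rows called lower at W12h were 11 of 188, 24 of 207, 30 of 188 and 0 to 60 of 188 under the same choices. edgeR called 1 phasiRNA lower at W1h and 1 at W6h, and 0 miRNA rows lower at either. With the median miRNA ratio set to 0, the kit test at W24h called 5 phasiRNAs in place of 8. It then called 18 of 188 miRNA rows in place of 46.

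The following sequences, not called over the 3 replicates in limma, changed sign at W24h. Of them siR850, phasiR_9 and phasiR_12 were called lower without replicate 3, phasiR_12 there with its sign changed (-0.94, limma adjusted p = 0.0419), and phasiR_16 was called lower by edgeR (-2.37, adjusted p = 0.0227). With the median miRNA ratio set to 0 the log2 change was 0.12 for siR850, 0.23 for phasiR_39, 0.32 for phasiR_40, 0.0090 for phasiR_55 and 0.39 for phasiR_8. Scaled to all mapped reads it was -0.10 for siR438(+) and -0.074 for phasiR_12. phasiR_40 was at 0.24 in edgeR and 0.11 with a pseudocount of 1 RPM. With a replicate left out the ranges were -0.14 to 0.087 for siR438(+), -0.90 to 0.26 for siR850, -0.94 to 0.50 for phasiR_12, -2.09 to 0.076 for phasiR_16, -0.44 to 0.079 for phasiR_39, -0.48 to 0.34 for phasiR_40, -0.42 to 0.29 for phasiR_8 and -1.58 to 0.39 for phasiR_9. The cause was not tested.

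The mean v1.5 sum was 10032 RPM, 11480 RPM over every deposited row and 3240 RPM over sequences above 0 in all libraries, which leaves out phasiR_53. The mean share of the 3 leading sequences was 53.9%, 41.5% and 63.3% with TruSeq, and 83.8%, 73.2% and 79.2% with v1.5, under the same 3 choices. In TruSeq the 46 sequences held at most 0.0461% of the 20 to 24 nt reads, which limits the depth behind each value.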
